A study of Mus musculus with 11 samples.

Results

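The genes of cholesterol synthesis and sterol regulation were measured by RNA-seq in im-scWAT cells, which are mouse preadipocytes from inguinal subcutaneous white fat immortalized with a viral large T antigen. Its members were found in the files by gene symbol, from a list drawn up with earlier results of these data known. Of 30 listed symbols, 29 were found among the 29955 gene symbols of the data, and the absent one, Msmo1, is another name of the gene listed as Sc4mol. Levels are given as FPKM, the fragments mapped to a transcript, scaled to its exon length and to the depth of the library, on the sense strand of 1 representative transcript per gene.

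In all, 11 samples were available. In the time course, cells were collected at days 0, 4 and 8 of differentiation with or without rosiglitazone (ROS), a ligand of the nuclear receptor PPARγ used at 0.5 μM to turn white adipocytes into beige ones, with 1 sample for each combination. Every culture after day 0 received the adipogenic mixture of indomethacin, dexamethasone, isobutylmethylxanthine, insulin and T3, followed by insulin and T3. The samples labelled ROS plus and minus at day 0 were preadipocytes that had not yet met the induction medium, and they served as a pair of one condition. The sample labels and the methods of the study differ on whether ROS was withdrawn on the day before day 8. The other 5 samples were day 8 adipocytes differentiated with ROS, all of which carried a retroviral short-hairpin RNA against mouse Jmjd1a together with a retroviral, V5-tagged human JMJD1A under the viral LTR promoter. JMJD1A is a histone demethylase that removes methyl groups from lysine 9 of histone H3. The human protein was wild type in WT A and WT B, S265A (a serine that can be phosphorylated replaced by alanine) in 1 sample, S265D (the same serine replaced by aspartate as a mimic of phosphorylation) in 1 sample, and S265D-H1120Y (the mimic with a catalytic iron-binding residue also replaced) in 1 sample. A sample with the hairpin but without human JMJD1A was not analysed here. The labels do not say whether the day 0 pair or the WT pair came from separate cultures, so their spread may be technical. P-values rest only on the spread between these samples. In the time course it comes from the day 0 pair and any difference in the ROS effect between days 4 and 8. The latter part may be an effect of treatment rather than a spread of replicates.

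The depth went from 3.10 to 5.29 Gb of mapped bases per sample, and 100 mapped bases on 2 kb of exon gave an FPKM of 0.0094 in the deepest sample and 0.0161 in the shallowest. In every sample each of the 29 genes reached an FPKM of 0.1, so no member was lost to the minimum of 0.1 used below. The summed FPKM of 10 adipocyte markers was 282 and 285 at day 0 and between 12174 and 37657 in the differentiated samples. The leukocyte markers Ptprc and Emr1 were listed at 0 in every sample, whereas Cd68 went from 0.541 to 21.7. Kdm3a, the mouse gene for JMJD1A, was at an FPKM of 21.1 and 16.0 in the untransduced day 8 samples with and without ROS and between 13.0 and 28.5 in the transduced samples. A loss of the targeted gene was therefore not visible in these values, and whether reads of the human copy were counted there was not tested. The RNA comes from whole cultures, so fewer cells of a type and less RNA per cell cannot be told apart.

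Cholesterol is built from acetyl-CoA through mevalonate, farnesyl diphosphate, squalene and lanosterol. When sterols are scarce, the chaperone SCAP carries the membrane-bound transcription factor SREBP2 (encoded by Srebf2) from the endoplasmic reticulum to the Golgi, where it is cleaved and released to activate the genes of synthesis and uptake. When sterols are plentiful, INSIG proteins hold SCAP in the endoplasmic reticulum, and oxysterols activate the liver X receptors (LXRα, encoded by Nr1h3, and LXRβ, encoded by Nr1h2), which turn on cholesterol export through ABCA1 and ABCG1. Adipocytes hold much of their cholesterol unesterified at the surface of the lipid droplet.

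The promoters of 6 members are shown because they span the patterns described below. Hmgcs1, Mvk, Idi1 and Srebf2 fell by day 8 of the time course, Insig1 rose and was higher with ROS, and Abca1 is an LXR target that rose. Each window runs 5′ to 3′ from 250 bases before to 50 bases after the annotated start in RefSeq (GRCm38.p6). Capitals mark matches to the sterol regulatory element searched here, TCACNCCAC, and to the CCAAT box, on either strand (ATTGG where the box is on the other strand).
Hmgcs1 (chr13:119690101-119690400, plus strand): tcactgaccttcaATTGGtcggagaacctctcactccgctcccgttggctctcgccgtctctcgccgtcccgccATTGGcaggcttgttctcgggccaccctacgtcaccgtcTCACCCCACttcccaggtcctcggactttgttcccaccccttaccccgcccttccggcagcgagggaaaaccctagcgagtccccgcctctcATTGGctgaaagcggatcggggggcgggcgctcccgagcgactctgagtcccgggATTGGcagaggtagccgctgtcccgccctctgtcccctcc
Mvk (chr5:114444019-114444318, plus strand): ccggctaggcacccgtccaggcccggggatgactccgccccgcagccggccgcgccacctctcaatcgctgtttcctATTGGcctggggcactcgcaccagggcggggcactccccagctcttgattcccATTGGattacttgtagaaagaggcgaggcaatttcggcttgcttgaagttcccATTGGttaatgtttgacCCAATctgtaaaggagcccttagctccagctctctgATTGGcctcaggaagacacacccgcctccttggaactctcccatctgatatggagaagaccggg
Idi1 (chr13:8885356-8885655, plus strand): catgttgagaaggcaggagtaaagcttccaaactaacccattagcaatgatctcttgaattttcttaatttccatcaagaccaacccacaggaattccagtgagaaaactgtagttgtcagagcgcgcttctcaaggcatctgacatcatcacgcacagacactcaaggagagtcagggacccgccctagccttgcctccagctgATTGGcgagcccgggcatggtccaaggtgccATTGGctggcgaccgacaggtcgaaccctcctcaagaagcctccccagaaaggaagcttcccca
Insig1 (chr5:28071162-28071461, plus strand): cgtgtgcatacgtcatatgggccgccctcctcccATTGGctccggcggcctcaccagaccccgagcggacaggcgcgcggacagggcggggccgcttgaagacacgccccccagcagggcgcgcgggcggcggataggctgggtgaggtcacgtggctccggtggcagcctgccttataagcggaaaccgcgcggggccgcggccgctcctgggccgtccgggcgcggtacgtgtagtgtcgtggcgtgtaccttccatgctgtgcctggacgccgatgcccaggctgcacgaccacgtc
Srebf2 (chr15:82147019-82147318, plus strand): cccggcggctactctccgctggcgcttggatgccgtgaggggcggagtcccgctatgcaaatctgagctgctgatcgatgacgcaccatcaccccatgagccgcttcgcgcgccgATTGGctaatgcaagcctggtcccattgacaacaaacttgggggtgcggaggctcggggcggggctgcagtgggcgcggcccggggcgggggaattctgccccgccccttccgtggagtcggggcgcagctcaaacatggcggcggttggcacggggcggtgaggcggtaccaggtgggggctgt
Abca1 (chr4:53159846-53160145, minus strand): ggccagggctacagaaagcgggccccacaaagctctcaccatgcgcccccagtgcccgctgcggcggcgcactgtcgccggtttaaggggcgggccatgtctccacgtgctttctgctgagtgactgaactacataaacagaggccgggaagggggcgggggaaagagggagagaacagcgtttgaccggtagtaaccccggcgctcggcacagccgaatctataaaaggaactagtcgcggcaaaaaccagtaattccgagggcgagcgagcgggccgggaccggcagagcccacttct
A window was at hand for 24 of the 29 genes, all but Fdps, Fdft1, Sqle, Stard4 and Abcg1. TCACNCCAC occurred in 1 of the 24, Hmgcs1, where it began 137 bases before the start, and in 1.44% of 27025 genes with a window. CCAAT, a site bound by NF-Y, which is known to act beside SREBP2, occurred in 18 of the 24 genes and in 41.1% of all genes. It was found in 15 of 16 synthesis genes, all but Acat2, in 3 of 4 regulators, all but Scap, and in 0 of 4 LXR and transport genes. CACGTG, the E-box, occurred in 6 of the 24 genes (Hsd17b7, Sc5d, Dhcr7, Insig1, Scap and Abca1) and in 8.09% of all genes. These are exact matches of letters in a fixed window, so sites that vary from the patterns were not counted. Binding was not measured at these promoters.

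**Figure D1:**
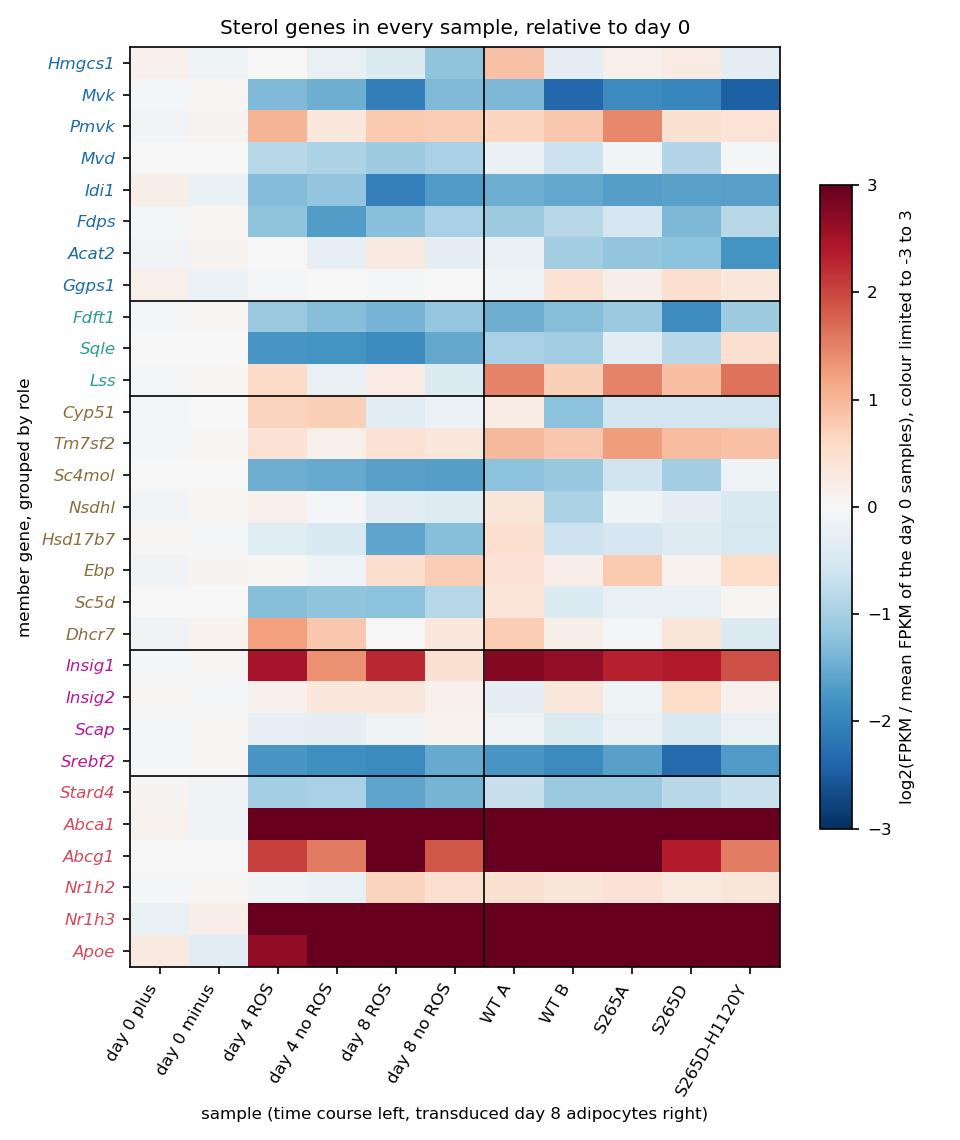
Level of each of the 29 genes in each of the 11 samples, as log2 of its FPKM over the mean FPKM of the day 0 samples; rows are genes grouped and coloured by role, columns are samples, and colours stop at -3 and 3. Srebf2, Sqle, Idi1, Mvk and Sc4mol are blue in the day 4 and day 8 columns of the time course, whereas Insig1, Abca1, Abcg1, Nr1h3 and Apoe are red in every differentiated sample.

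The first comparison asked how the pathway changed as preadipocytes became adipocytes. By day 8 most enzymes of cholesterol synthesis and Srebf2 were lower in the untransduced adipocytes of the time course. Insig1, the LXRα gene and the LXR targets were higher there. The transduced adipocytes did not enter this comparison. Changes are log2 differences of FPKM + 0.1 with their SE from limma over the 6 samples of the time course, with day and ROS as terms and Benjamini-Hochberg adjustment over 16400 genes. At day 8 against day 0, 13 of 29 members (44.8%) were lower, where 28.9% of all genes tested were lower. Another 8 members (27.6%) were higher, close to the 27.7% of all genes. At day 4, 10 members (34.5%) were lower against 24.2% of all genes, and 8 (27.6%) were higher against 24.8%. The median change of the members at day 8 was -0.09, beside -0.03 over all genes. Among the 19 synthesis enzymes, 8 fell and 3 rose by day 4, and 11 fell and 2 rose by day 8, with a median of -0.79 at day 8. Of the 21 calls at day 8, 15 held under every alternative setting, and so did 13 of the 18 at day 4. The calls of Pmvk, Fdps, Hmgcs1, Nsdhl, Ebp and Nr1h2 at day 8, and those of Mvk, Pmvk, Cyp51 and Dhcr7 at day 4, were lost when either day 0 sample was left out. That of Fdps at day 4 was lost without the one labelled ROS minus.

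The entry into the pathway divided into genes that fell and genes that did not. Idi1, the isomerase that makes the building blocks of farnesyl diphosphate, had an FPKM of 71.5 and 55.1 at day 0, 25.8 with ROS and 28.0 without at day 4, and 15.4 and 19.6 at day 8. Both day 0 values lay above all 4 later ones, and the change to day 8 was -1.85 ± 0.16 (adjusted p = 0.000296). Mvk, mevalonate kinase, went from 40.2 and 42.9 at day 0 to 16.6 and 15.1 at day 4 and 9.88 and 16.5 at day 8, a change of -1.69 ± 0.21 (adjusted p = 0.00113). Fdps, which makes farnesyl diphosphate, was the most abundant enzyme of the set per length at day 0, with an FPKM of 406 ± 22.2 (SD, n = 2). It fell to 175 with and 127 without ROS at day 4 and was at 170 and 208 at day 8, a change of -1.11 ± 0.19 (adjusted p = 0.00423). Mvd, the decarboxylase of the same arm, fell from 34.6 and 35.1 to 16.6 and 17.6 by day 8, a change of -1.02 ± 0.11 (adjusted p = 0.000772). Hmgcs1, the synthase that feeds HMG-CoA into the pathway, followed a later course. Its FPKM of 46.1 and 38.7 at day 0 overlapped the 42.9 and 36.2 of day 4, and it fell to 32.0 and 18.5 only by day 8 (change -0.79 ± 0.17, adjusted p = 0.00844). Hmgcs1 lies on an unplaced part of chromosome 13 in mm9, in copies with near-equal values, so its level is uncertain. Pmvk, the kinase after Mvk, went the other way, from 51.6 and 57.6 to 93.9 and 91.4 by day 8 (0.76 ± 0.17, adjusted p = 0.0117). Acat2, the cytosolic thiolase at the start, and Ggps1, which makes geranylgeranyl diphosphate on a side branch, did not pass the test at either day, with changes at day 8 of -0.02 ± 0.13 and -0.01 ± 0.15.

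In the squalene and lanosterol steps, Sqle and Fdft1 fell and Lss did not pass the test. Sqle, squalene epoxidase, a rate-limiting enzyme of the late pathway on chr15:59146647-59162748 (mm9), had an FPKM of 135 and 139 at day 0, 40.9 and 39.7 at day 4, and 36.6 and 47.3 at day 8. The drop was complete by day 4 (change -1.76 ± 0.13, adjusted p = 0.000238) and was -1.71 ± 0.13 at day 8 (adjusted p = 0.000209). Fdft1, squalene synthase, fell from 54.8 and 58.6 to 21.4 and 25.2 by day 8, a change of -1.28 ± 0.13 (adjusted p = 0.000581). Lss, lanosterol synthase, was at 31.9 and 34.4 at day 0 and at 39.2 with and 24.9 without ROS at day 8, so the later values fell on either side of the day 0 pair (change -0.09 ± 0.11, adjusted p = 0.517).

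The steps after lanosterol held genes of several courses. Sc4mol, the sterol C4-methyl oxidase, went from 82.1 and 84.6 to 30.0 and 29.1 at day 4 and 27.0 and 26.6 at day 8, and its change of -1.64 ± 0.10 at day 8 had an adjusted p of 9.94e-05. Hsd17b7, the reductase of the same demethylation complex, fell later, from 11.8 and 11.4 through 9.02 and 8.48 to 3.90 and 4.81 (day 8 change -1.40 ± 0.15, adjusted p = 0.000684). Sc5d, the C5-desaturase, fell from 29.8 and 30.3 to 12.4 and 13.1 by day 4 and was at 12.8 and 16.6 at day 8 (change -1.04 ± 0.12, adjusted p = 0.000978). Nsdhl, the dehydrogenase of the complex, had the smallest called change, -0.36 ± 0.11 at day 8 (adjusted p = 0.0335).

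Cyp51, lanosterol 14α-demethylase, rose before it returned. Its FPKM was 63.2 and 65.3 at day 0, 103 and 105 at day 4, and 51.9 and 56.6 at day 8. The change was 0.69 ± 0.10 at day 4 (adjusted p = 0.00276) and -0.24 ± 0.10 at day 8 (adjusted p = 0.086). Dhcr7, the last reductase of one branch, was at 8.43 and 9.72 at day 0, 21.4 and 15.9 at day 4 and 9.05 and 11.3 at day 8. It rose by 1.02 ± 0.20 at day 4 (adjusted p = 0.00789), and its difference of -0.86 ± 0.20 from day 4 to day 8 had an adjusted p of 0.0532. Ebp, the sterol isomerase, was at 33.3 and 38.0 at day 0 and at 51.2 and 59.3 at day 8 (0.63 ± 0.14, adjusted p = 0.00933). Tm7sf2, a sterol C14-reductase, was low, between 3.74 and 5.18, and did not pass at either day.

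**Figure D2:**
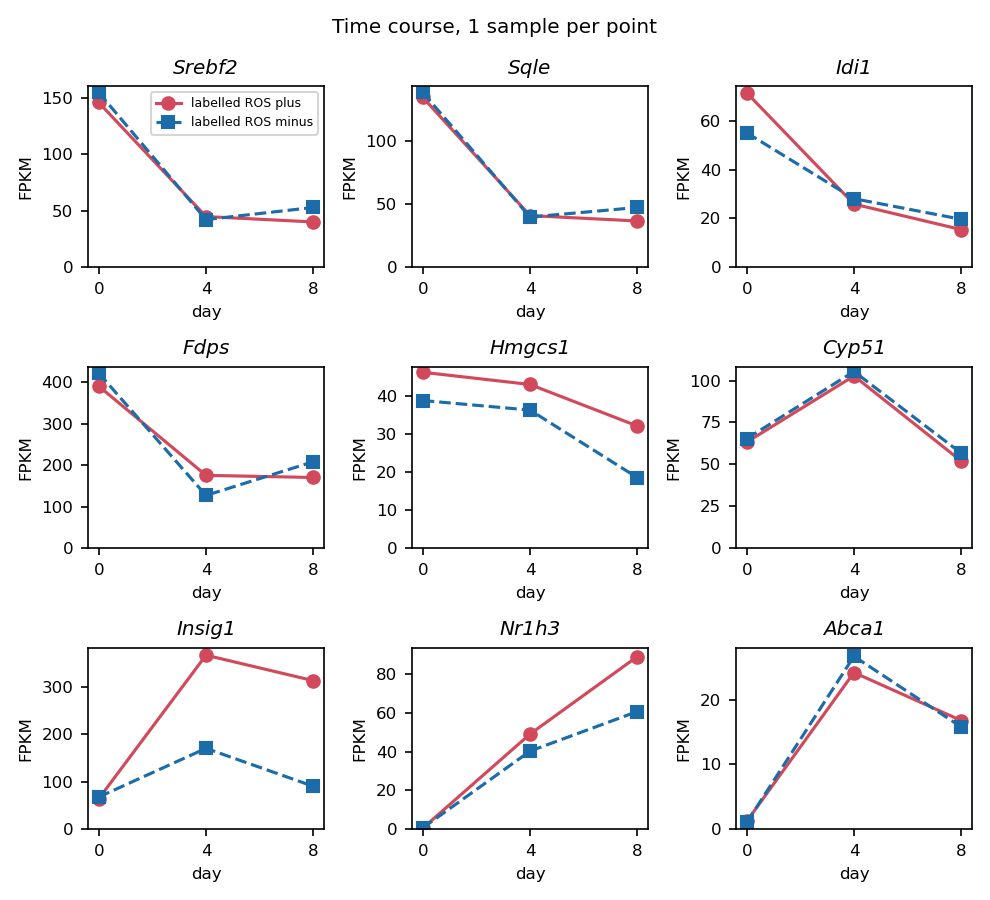
FPKM of 9 genes against day of differentiation, with 1 sample per point; circles with solid lines are the samples labelled ROS plus and squares with dashed lines those labelled ROS minus. Srebf2 and Sqle drop by day 4, Cyp51 peaks at day 4, and the lines of Insig1 separate after day 0.

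Of the regulators, Srebf2 fell and Insig1 rose, while Insig2 and Scap did not pass the test at either day. Srebf2 (chr15:81977699-82035390, mm9) had an FPKM of 146 and 155 at day 0, 44.8 and 42.2 at day 4, and 40.1 and 52.9 at day 8. All 4 later values lay far below the day 0 pair, and the change was -1.79 ± 0.14 at day 4 (adjusted p = 0.000305) and -1.71 ± 0.14 at day 8 (adjusted p = 0.000296). Insig1 (chr5:28397952-28405202, mm9), itself an SREBP2 target, was at 63.9 and 67.7 at day 0, 367 with and 170 without ROS at day 4, and 313 and 90.4 at day 8. Every later value was above the day 0 pair, and the change averaged over ROS was 1.93 ± 0.18 at day 4 (adjusted p = 0.0005) and 1.35 ± 0.18 at day 8 (adjusted p = 0.00142). Insig2, the second INSIG, stayed between 16.0 and 20.9 in the time course, with a change of 0.24 ± 0.14 at day 8 (adjusted p = 0.176). Scap was between 20.7 and 26.5, with a change of -0.01 ± 0.12.

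Genes of sterol transport and the LXR arm had the largest rises. Nr1h3 was at 0.441 and 0.594 at day 0, 49.0 and 40.2 at day 4 and 89.1 and 60.7 at day 8, and changed by 6.91 ± 0.16 by day 8 (adjusted p = 5.12e-06). Nr1h2, the broadly expressed receptor, changed far less, from 18.7 and 19.3 to 30.0 and 26.5 at day 8 (0.57 ± 0.11, adjusted p = 0.00541). Per length, Nr1h3 was thus below Nr1h2 in both preadipocyte samples and above it in all 4 later ones. Abca1 (chr4:53043661-53172767, mm9), which loads cholesterol onto apolipoprotein A-I, was at 1.20 and 1.02 at day 0, 24.2 and 26.7 at day 4, and 16.8 and 15.8 at day 8. It rose by 4.40 ± 0.15 at day 4 (adjusted p = 1.59e-05) and by 3.76 ± 0.15 at day 8 (adjusted p = 2.38e-05). Abcg1, the exporter to high-density lipoprotein, went from 2.35 and 2.41 to 9.93 and 7.02 at day 4 and 21.5 and 8.61 at day 8 (2.47 ± 0.21, adjusted p = 0.000323). Apoe, an apolipoprotein and LXR target, rose from 0.51 and 0.343 to 12.2 and 8.52 (4.31 ± 0.33, adjusted p = 0.000207). Stard4, a carrier of cholesterol between membranes and an SREBP2 target, fell with the synthesis genes, from 26.2 and 23.1 to 8.25 and 9.44 (-1.47 ± 0.13, adjusted p = 0.000321).

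**Figure D3:**
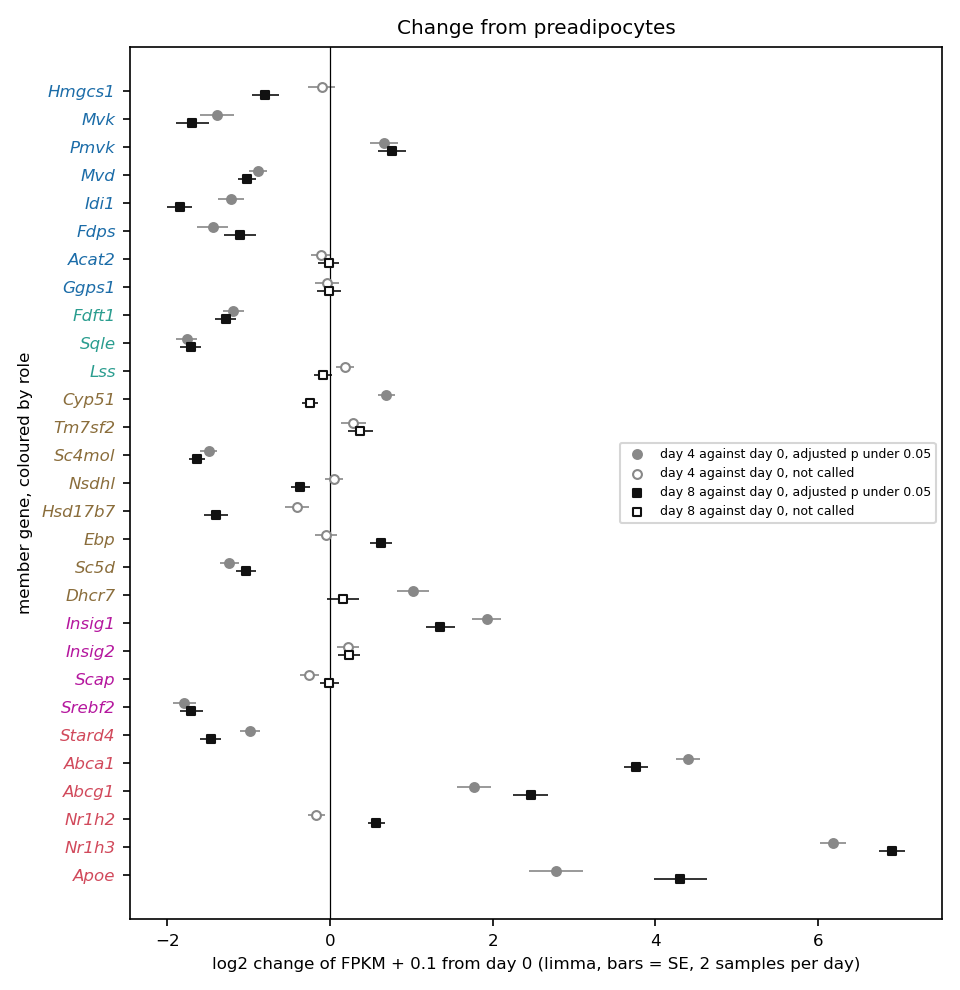
Log2 change of FPKM + 0.1 from day 0 for each gene at day 4 (grey circles) and day 8 (black squares), with bars of 1 SE from limma; filled symbols passed an adjusted p of 0.05. Squares of most synthesis genes lie left of 0, from -1.85 for Idi1, and Nr1h3, Apoe, Abca1 and Abcg1 lie right of 2 at day 8.

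Between day 4 and day 8 fewer genes moved. Cyp51 (-0.94 ± 0.10, adjusted p = 0.0176) and Hsd17b7 (-0.997 ± 0.15, adjusted p = 0.0273) fell, 2 of 29 members where 3.9% of all genes fell. Ebp (0.68 ± 0.14, adjusted p = 0.0417), Nr1h2 (0.73 ± 0.11, adjusted p = 0.0269) and Apoe (1.53 ± 0.33, adjusted p = 0.0467) rose, 3 members where 4.57% of all genes rose. All 5 calls were lost when either day 0 sample was left out.

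The surrounding sterol network was described with a list of 40 further genes of synthesis, uptake, storage and export, of which 38 had an FPKM of at least 0.1 in the time course. At day 8, 8 (21.1%) were lower than at day 0, where 28.9% of all genes were, and 20 (52.6%) were higher, where 27.7% of all genes were. Their median change was 0.46. Nceh1, a cholesteryl ester hydrolase, fell from 3.39 and 3.14 to 0.151 and 0.301 (-3.41 ± 0.23, adjusted p = 0.000134). Srebf1, which encodes the SREBP1 proteins that favour fatty acid genes, rose from 39.0 and 41.7 to 184 and 197 (2.24 ± 0.13, adjusted p = 7.41e-05), opposite to Srebf2. Apoc1, an apolipoprotein, was listed at 0 in both day 0 samples and was at 299 with and 222 without ROS at day 8. Cyp27a1, which makes an oxysterol, rose by 4.47 ± 0.33 (adjusted p = 0.000194), Soat2, which esterifies cholesterol, by 3.81 ± 0.26 (adjusted p = 0.00014), and Stard5, a sterol-binding protein, by 2.63 ± 0.13 (adjusted p = 5.33e-05).

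The effect of ROS asked how beige adipocytes differ from white ones. At day 8 Insig1 and Abcg1 were the members furthest apart, both higher with ROS, and no synthesis enzyme was 2-fold apart on either day. With 1 sample per condition and day, ratios of FPKM without a pseudocount were read at 2-fold, with no test. At day 8 Insig1 was 3.47 times as high with ROS (313 against 90.4) and Abcg1 2.50 times (21.5 against 8.61). These were 2 of 29 members, where 4.0% of 15536 genes were 2-fold higher. No member was 2-fold lower, where 15.2% of genes were. At day 4 Insig1 was 2.15 times as high (367 against 170), the only member past 2-fold in a background of 2.2% higher and 4.51% lower. Abcg1 was 1.41 times as high at day 4, less far apart than Lss (1.73), Pmvk (1.63) and Apoe (0.61). At day 0 the samples labelled plus and minus differed by under 2-fold in all 29 members, where 4.9% of genes passed, and Insig1 had a ratio of 0.944 there.

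Of the enzymes, Lss was 1.73 times as high with ROS at day 4 (49.5 against 28.7) and 1.58 times at day 8 (39.2 against 24.9). Hmgcs1 had ratios of 1.19 and 1.73, but its day 0 pair also differed by 1.19. Mvk was the lowest at day 8, at 0.598 of the untreated value (9.88 against 16.5), and Srebf2 was at 0.757 (40.1 against 52.9). Sqle (1.03 and 0.774) and Sc4mol (1.03 and 1.01) were close to 1 on at least one of the days. Nr1h3 had ratios of 1.22 and 1.47 and Abca1 of 0.906 and 1.06.

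Averaged over days 4 and 8 in limma, 0 of 16400 genes passed an adjusted p of 0.05 for ROS (0% called). An unadjusted p under 0.05 was found for 6 of 29 members, a share close to that of all genes, 3260 of 16400. The 6 members were Insig1, Lss, Abcg1, Acat2, Hmgcs1 and Nr1h3, all higher with ROS. Insig1 differed by 1.45 ± 0.18 (adjusted p = 0.105), beside a smallest adjusted p of 0.0981 over all genes. Lss differed by 0.72 ± 0.11 (adjusted p = 0.126) and Abcg1 by 0.90 ± 0.21 (adjusted p = 0.148). Over the alternative settings 0 genes passed in each fit, with a smallest adjusted p over all genes between 0.0572 and 0.811.

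The scale moved with ROS at day 8. The median log2 ratio of all genes was -0.22 there, and that of the members -0.05. When the samples were rescaled by their median ratio over genes, these became -0.02 and 0.14, and the genes past 2-fold went from 2366 lower and 622 higher to 1838 lower and 853 higher. Under this scaling Insig1 and Abcg1 remained the members past 2-fold, with log2 ratios of 1.99 and 1.51. The adipocyte marker sum was 37657 with and 12174 without ROS at day 8, and 34208 and 24488 at day 4. Fabp4 made up most of it. Without Fabp4 the sum at day 8 was 6255 with and 4542 without ROS, with 5 of the 9 markers higher with ROS and Pparg at 140 against 231. The 7 preadipocyte and fibroblast markers summed to 187 with and 741 without ROS at day 8, and to 282 and 381 at day 4. The part of these markers in the ratios was not tested.

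**Figure D4:**
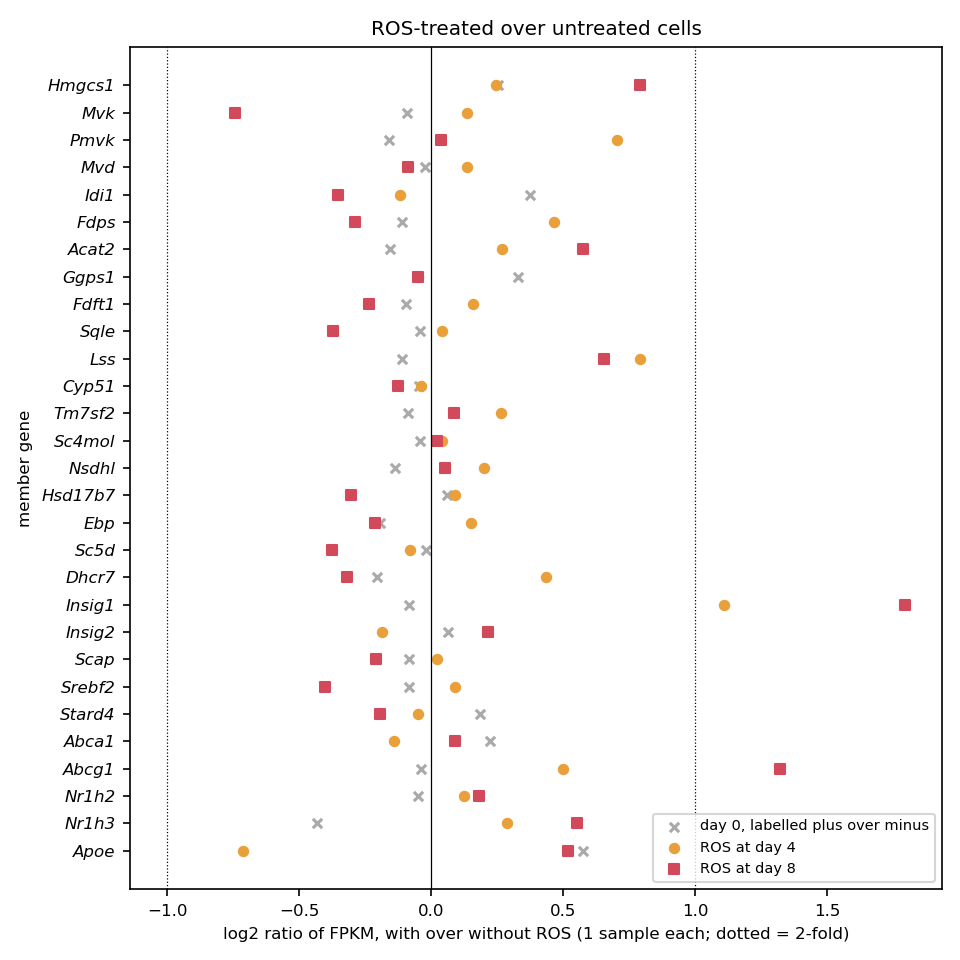
Log2 ratio of FPKM with over without ROS for each gene at day 4 (circles) and day 8 (squares), and of the day 0 samples labelled plus over minus (crosses), with 1 sample per condition and dotted lines at 2-fold. Insig1 lies right of the line on both days and Abcg1 at day 8, and the crosses stay within the lines.

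Among the transduced adipocytes, the WT samples differed from each other more than the day 0 pair did. In WT B, 6 of 29 members were at 0.5 of the WT A level or below, where 10.8% of genes were, and 0 were 2-fold higher, where 16.4% were. They were Cyp51 (74.6 in WT A against 27.3 in WT B), Hmgcs1 (77.6 and 34.7), Nsdhl (63.3 and 25.6), Hsd17b7 (16.2 and 7.55), Mvk (16.3 and 8.06) and Apoe (25.9 and 8.63). Sqle, by contrast, was at 69.3 and 66.6, Insig1 at 444 and 406, and Idi1 at 23.0 and 21.8. Fabp4 was at 12393 for WT A against 26902 for WT B, while the other 9 adipocyte markers summed to 4082 and 3298, and 7 of these 9 were lower in WT B. The preadipocyte and fibroblast markers summed to 296 and 753. Of the muscle markers, Acta1 was at 1.40 and 19.3, while Myod1, Myog and Ckm were listed at 0 in both samples. The part of all these markers in the differences was not tested.

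S265A was compared with the mean of the WT samples to ask what the loss of the phosphorylated serine does. Apoe was 2-fold lower, 1 of 29 members where 7.55% of genes were, and 0 members were 2-fold higher, where 3.41% of genes were. Its FPKM was 3.80 in S265A, or 0.22 of the WT mean of 17.3 ± 12.2 (SD, n = 2). It lay below both WT samples, at 0.147 of WT A and 0.441 of WT B. Pmvk, at 148 against 84.8 and 96.0, and Sqle, at 110 against 69.3 and 66.6, were 1.63 and 1.62 times the WT mean. In S265A, 10 members lay above both WT samples, where 24.3% of genes did, and 8 below both, where 22.4% did.

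S265D had 0 members past 2-fold, where 5.56% of genes were lower and 4.02% higher. The closest were Apoe at 0.508 and Abcg1 at 0.521 of the WT mean. Apoe, however, was at 0.339 of WT A and 1.02 of WT B, so it was not below both. Abcg1 was at 12.1 in S265D and at 25.8 and 20.7 in WT, below both. In S265D, 4 members lay above both WT samples (Sqle, Sc4mol, Ggps1 and Insig2), where 23.4% of genes did, and 13 below both, where 20.7% did. Without WT B, 2 members were 2-fold lower in S265D, where 1217 of 15788 genes were. Without WT A, 0 were, where 688 of 15734 genes were.

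S265D-H1120Y against S265D asked what the loss of catalysis adds. The single sample of the double mutant had higher values for several enzymes on either side of squalene. Sqle was at 192 in S265D-H1120Y and 76.3 in S265D, a ratio of 2.51. It was the 1 member past 2-fold higher, where 5.62% of genes were, and 0 were 2-fold lower, where 8.66% were. The Sqle value was the highest of all 11 samples, above the 135 and 139 of preadipocytes. At 1.5-fold, 6 members were higher, where 11.4% of genes were, and 3 lower, where 16.7% were. The other 5 higher ones were Sc4mol (75.7 against 40.5), Mvd (34.0 against 18.9), Fdft1 (27.3 against 15.6), Lss (103 against 62.1) and Srebf2 (46.5 against 30.4). The 3 lower ones were Apoe (4.55 against 8.78), Abcg1 (6.92 against 12.1) and Dhcr7 (6.85 against 11.6). Mvk, Idi1 and Cyp51, of the same pathway, had ratios of 0.712, 0.979 and 1.01.

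Set beside WT, the S265D-H1120Y sample had Sqle at 2.76 times WT A and 2.88 times WT B, and Sc4mol at 2.12 and 1.9985 times. Abcg1 was at 0.268 and 0.335, Acat2 at 0.336 and 0.59, and Apoe at 0.176 and 0.527. Against the WT mean 2 members were thus 2-fold higher, where 5.91% of genes were, and 3 lower, where 10.2% were. Insig1 was 250 in this sample, the lowest of the transduced samples and below both WT values. Without WT A, 1 member was 2-fold higher (Sqle), where 1010 of 15787 genes were, and 1 lower (Abcg1), where 1439 were. Without WT B, 2 members were higher, where 2184 of 15762 genes were, and 7 lower, where 1905 were. In S265D-H1120Y, 9 members lay above both WT samples, where 27.0% of genes did, and 10 below both, where 31.5% did. Mvd, Fdft1, Lss and Srebf2 exceeded the higher of the WT values by at most 1.17-fold.

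**Figure D5:**
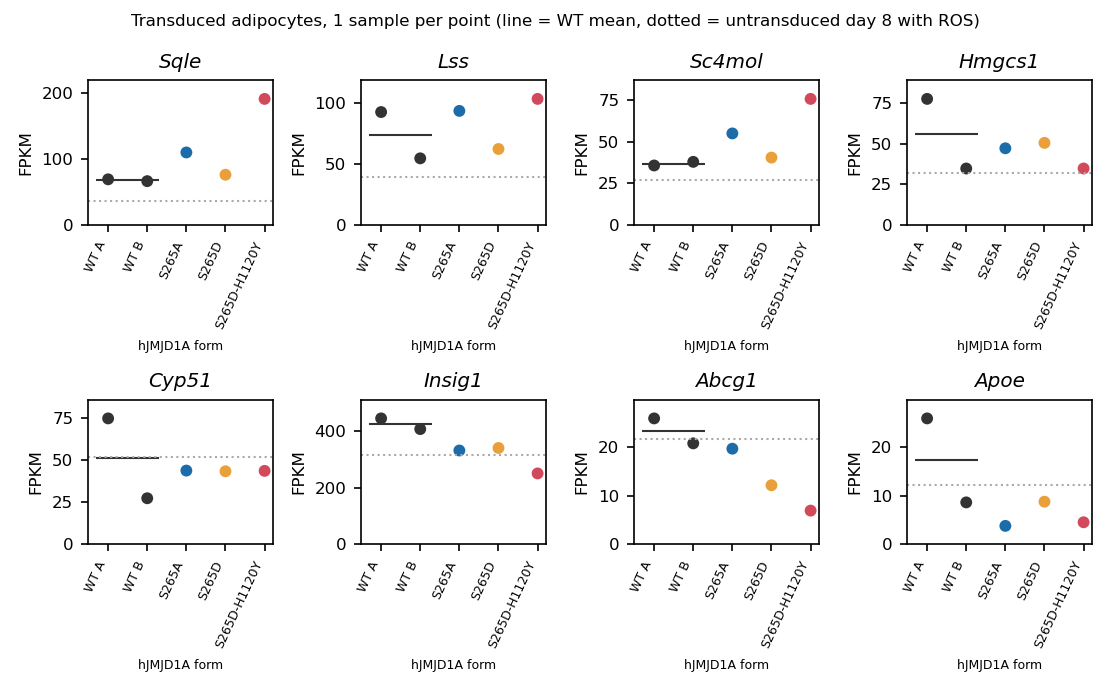
FPKM of 8 genes in the 5 transduced day 8 samples, with 1 sample per point, a line at the mean of the WT samples and a dotted line at the untransduced day 8 sample with ROS. Sqle and Sc4mol are highest in S265D-H1120Y, Abcg1 and Insig1 are lowest there, and the WT points of Hmgcs1, Cyp51 and Apoe lie far apart.

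No difference between the forms of JMJD1A passed limma over the 5 samples, with 0 of 16402 genes called in S265A, S265D and S265D-H1120Y (0% each) and 73, 77 and 146 genes at an unadjusted p under 0.05. The fit rests on the WT pair for its spread, with 1 residual degree of freedom. Sqle differed by 1.33 ± 0.35 between S265D-H1120Y and S265D, with an adjusted p of 1, and Apoe by -1.95 ± 0.86 between S265A and WT, also with an adjusted p of 1. Of 37 further sterol genes, 3 (8.1%) were 2-fold higher in S265D-H1120Y than in S265D, where 5.62% of all genes were. Another 1 (2.7%) was lower, where 8.66% were. Soat2 (24.5 against 9.08) and Stard5 (36.6 against 17.5) were among the higher ones. Soat1 (22.7 against 9.73), the other cholesterol-esterifying enzyme, and Cyp7b1 (0.24 against 0.648), an oxysterol hydroxylase, were named after their values were seen, as the other genes of the list past 2-fold. The ratio of WT B over WT A was 2.25 for Soat2 and 7.56 for Cyp7b1, and 1.41 for Soat1 and 1.24 for Stard5. The adipocyte marker sum was 16390 in S265D-H1120Y and 26015 in S265D, or 2263 and 3143 without Fabp4, with 2 of the other 9 markers higher in S265D-H1120Y. The preadipocyte and fibroblast markers summed to 367 and 624, and Cd68 was 21.7 and 10.3. Their part in these differences was not tested.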

How the data were processed

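Per the study's methods, the authors sequenced TruSeq libraries, used Burrows-Wheeler aligner to map reads to the UCSC transcriptome and mm9 (the build given in the submitters' processing notes), realigned them locally with a k-mer size of 11, and worked out FPKM by strand. The deposited files hold FPKM for 55419 transcripts on each strand and the signal (coverage) of each transcript as mapped bases. Their log columns were not used. No read counts were at hand, so a count test was not used.

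Each gene is its sense row marked as representative. Depth was worked out from mapped bases, exon length and FPKM, in Python 3.11.15. Days were compared with limma 3.58.1 in R 4.3.3 on log2(FPKM + 0.1) among genes that reached an FPKM of 0.1 in a sample, with 2 residual degrees of freedom; the pseudocount understates changes of low genes. The script was tested on simulated data. Ratios used no pseudocount and the 2-fold rule of the study. Promoters were matched by symbol to RefSeq windows of GRCm38.p6.

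The members and lists were chosen with earlier results of these data known. All members are named, and of the further sterol genes up to 8 with the largest change at day 8. Some of these are not reported here. Alternatives changed the pseudocount, minimum FPKM, rows, scaling, threshold, fit and samples. The comparison of S265D-H1120Y with WT and the counts outside both WT samples were added after seeing the data.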

Additional observations from a re-analysis of the deposited data

Results flagged for a closer look

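Of the 29 genes, 3 had ROS ratios of opposite sign at day 4 and day 8, with at least 0.25 on the log2 scale in each direction. The share of all genes that meet this rule was not worked out, so 3 of 29 cannot be set against a background. For Fdps, the log2 ratio with over without ROS was 0.47 at day 4 and -0.29 at day 8, and the difference had an adjusted p of 0.279 in limma. For Dhcr7 the log2 ratios were 0.43 and -0.32 (adjusted p = 0.313), and for Apoe -0.71 and 0.52 (adjusted p = 0.377). In this test of the difference, whose spread comes from the day 0 pair, 0 of 16400 genes passed.

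The antisense rows of the files entered no comparison. Fdft1 had the highest antisense FPKM of the 29 genes, 2.19, in the day 8 sample without ROS, where its sense FPKM was 25.2. Its highest antisense share of sense in any sample was 9.89%. The highest antisense FPKM of Acat2 was 1.57, beside a sense FPKM of 99.4, in the day 0 sample labelled ROS minus. That of Insig1 was 1.25, beside 444, in WT A. The highest antisense share of sense in any sample was 2.29% for Acat2 and 0.492% for Insig1. The other 26 genes stayed under an antisense FPKM of 1.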

How the results depend on the processing

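No call changed direction under any alternative run. By day 4, 5 members rose in place of 8 with all 11 samples in one fit and when either day 0 sample was left out (5 to 5), and Mvk, Pmvk, Cyp51 and Dhcr7 lost their call in all 3 of these fits. By day 8, 5 rose in place of 8 when either was left out (5 to 5). From day 4 to day 8, 0 members fell and 0 rose with no minimum FPKM, without the mean-variance trend, with all 11 samples in one fit and when either day 0 sample was left out (0 to 0), whereas 6 fell with a minimum FPKM of 1 and 5 with rescaled samples. At 1.5-fold, 5 members passed for ROS at day 8, 4 for ROS at day 4, 13 for WT B against WT A, 4 for S265A, 4 for S265D and 9 for S265D-H1120Y against S265D. Of all genes, 4039 were lower and 1322 higher of 15536 for ROS at day 8, and 1649 and 675 of 15246 at day 4. For WT B against WT A these were 3176 and 4279 of 15837, and for S265A 2261 and 1155 of 16051. They were 1597 and 1366 of 16089 for S265D, and 2631 and 1804 of 15760 for S265D-H1120Y against S265D. For S265D, 2 passed at 2-fold with rows summed per gene, where 1052 of 16601 genes were lower and 761 higher. When 1 WT sample was left out, 0 to 2 passed. The cause of these changes was not tested. No paired analysis was possible because only the WT samples carry replicate letters. Each mutant and each ROS condition had 1 sample, and depth limited Apoe and Nr1h3 most at day 0.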
